A study of Mus musculus with 8 samples.

Results

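The syndecans and glypicans are the 10 genes Sdc1, Sdc2, Sdc3, Sdc4, Gpc1, Gpc2, Gpc3, Gpc4, Gpc5 and Gpc6, taken by name as the 2 families of cell-surface heparan sulfate proteoglycan and found in full among the 43346 gene identifiers of the count tables. Their mRNA was read in notochord-derived cells (NDCs) of the mouse at embryonic day 12.5 (E12.5), when the notochord is a continuous rod, and at birth (P0), when its cells form the nucleus pulposus (NP) of each disc. Both stages came from Shh-cre;ROSA:YFP animals, in which Cre made from the Shh gene switches on YFP in Shh-expressing cells and all their descendants, so cells of other Shh-expressing tissues are also marked. Each stage had 4 litters (NDP10.2, NPD3, NPD4 and NPD9.2 at E12.5, and NPD26, NPD27, NPD28 and NPD30 at P0), and the animals of a litter were pooled into 1 RNA sample. Notochords at E12.5 were dissected and went whole into TRIzol, while P0 cells were shaken out of the discs and sorted for YFP, so stage and isolation cannot be told apart.

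Syndecans are transmembrane core proteins and glypicans are held in the outer leaflet of the membrane by a glycosylphosphatidylinositol anchor. Both carry heparan sulfate chains that bind Hedgehog, Wnt, FGF and BMP ligands as well as matrix proteins, and both can be released from the surface by enzymes. Notochord and NP cells secrete such ligands and sit in a matrix rich in proteoglycan, which places these receptors between the cell and its surroundings.

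Between 4442775 and 8904050 reads per library were counted on genes. CPM are the counts scaled to library size. By reads on genes, 3 counts, taken as the smallest visible signal, stood for 0.337 to 0.675 CPM, a floor that covers counting error only. All other CPM used library sizes adjusted by TMM factors (0.919 in NPD9.2 to 1.16 in NPD4), so they differ somewhat in scale from this floor. Among the defining markers of the tissue, T had 584 ± 335 CPM at E12.5 against 1319 ± 745 CPM at P0 (mean ± SD, n = 4) and Krt8 had 326 ± 195 and 488 ± 263 CPM, while Noto was at or under 0.433 CPM in all 8 litters. Krt19 was higher at P0 (log2 fold change 1.74 ± 0.50 SE, adjusted p = 0.0267) and Shh was lower (-7.14 ± 0.95, adjusted p = 0.000742). RNA of other cells differed by stage and litter. All 12 leukocyte markers were higher at P0, with a summed level of 65.6 to 188 CPM at E12.5 and of 992 (NPD30) to 8671 CPM (NPD28) at P0. The summed level of the 10 notochord and NP markers ran from 2382 to 6367 CPM in E12.5 litters and from 8220 to 31820 CPM in P0 litters, highest in NPD30. Of the 9 tested, 3 were higher, 2 lower and 4 not past the test, and without Car3 the sums overlapped (1687 to 4008 CPM and 1969 to 6935 CPM). All 7 sclerotome and all 7 epithelial markers were lower at P0, as were 6 of 7 erythroid markers, whose sums were 9606 to 44030 CPM at E12.5 against 180 to 628 CPM at P0. Also lower at P0 were 5 of 5 skeletal muscle markers tested (129.2 to 624.3 CPM, then 5.30 to 23.2 CPM), 3 of 3 liver markers (42.3 to 700.3 CPM, then 0.471 to 1.73 CPM) and 4 of 6 Schwann and neural crest markers. Osteoblast markers were higher in 4 of 5 tested, at 29.4 to 84.1 CPM and 324 to 671 CPM, and Dmp1 among them had no count at E12.5. Sums overlapped between the stages for cartilage markers (2 of 7 tested higher, 1 lower) and endothelial markers (1 of 7 lower). They also overlapped for B lineage markers (5 of 6 tested higher) and neural markers (2 of 6 tested lower). The part of these cells in the results was not tested, and in bulk RNA fewer cells of a type and less RNA per cell cannot be told apart.

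Of the 10 members, 9 passed the filter on low counts and were tested, and 5 changed with stage. Sdc3 and Sdc4 rose to P0, and Sdc1, Gpc2 and Gpc3 fell. Over all 15467 genes tested with edgeR's quasi-likelihood F-test at a Benjamini-Hochberg adjusted p under 0.05, 27.9% passed, 16.0% as higher and 12.0% as lower at P0. The litters of the 2 stages did not overlap for 4 members (Sdc1, Sdc4, Gpc2 and Gpc3), and for 29.9% of all genes tested. The median log2 fold change was 0.92 over the 4 syndecans, -0.89 over the 5 glypicans tested and 0.04 over all genes tested.

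**Figure D1:**
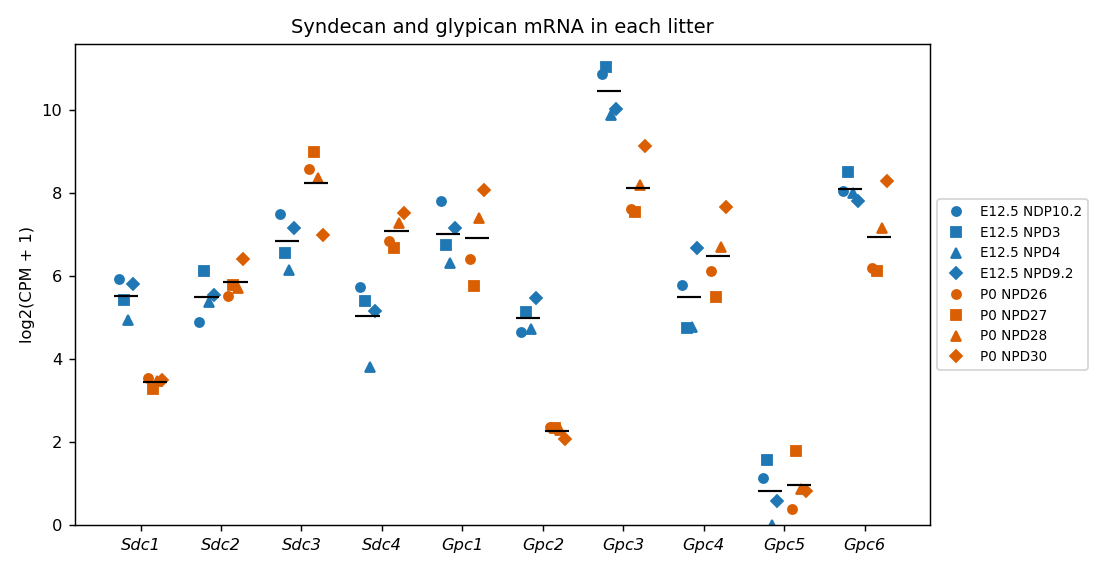
Abundance of each member, as log2(CPM + 1), in the 4 E12.5 litters (blue) and the 4 P0 litters (orange), with a black bar at the stage mean. The P0 litters of Sdc1, between 8.65 and 10.7 CPM, and of Gpc2, between 3.18 and 4.09 CPM, lie close together and below every E12.5 litter, whereas those of Gpc1, Gpc4 and Gpc6 are spread across the E12.5 range or beyond it.

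The gene starts of 7 members were found in the RefSeq promoter sequences (GRCm38.p6), which run from 250 bases before the start to 50 after it. Printed here are those of Sdc4, which rose furthest, of Gpc2, which fell furthest, and of Gpc3, the most abundant member, 5′ to 3′ on the gene's own strand. Sdc4 is chr2:164443139-164443438 on the minus strand, Gpc2 is chr5:138279888-138280187 on the minus strand, and Gpc3 is chrX:52613925-52614224 on the minus strand. Capitals mark each GC box, GGGCGG or its reverse CCGCCC.
Sdc4: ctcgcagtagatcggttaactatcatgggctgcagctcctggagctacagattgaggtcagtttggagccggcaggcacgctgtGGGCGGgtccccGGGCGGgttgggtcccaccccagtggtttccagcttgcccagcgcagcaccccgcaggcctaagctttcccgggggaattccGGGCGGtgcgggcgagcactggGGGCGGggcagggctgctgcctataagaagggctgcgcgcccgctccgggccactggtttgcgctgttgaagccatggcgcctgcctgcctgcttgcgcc
Gpc2: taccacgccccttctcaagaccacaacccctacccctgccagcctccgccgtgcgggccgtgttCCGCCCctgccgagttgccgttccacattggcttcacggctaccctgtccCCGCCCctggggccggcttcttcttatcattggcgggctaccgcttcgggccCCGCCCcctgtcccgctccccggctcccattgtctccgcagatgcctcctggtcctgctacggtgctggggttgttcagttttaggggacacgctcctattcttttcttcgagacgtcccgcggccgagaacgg
Gpc3: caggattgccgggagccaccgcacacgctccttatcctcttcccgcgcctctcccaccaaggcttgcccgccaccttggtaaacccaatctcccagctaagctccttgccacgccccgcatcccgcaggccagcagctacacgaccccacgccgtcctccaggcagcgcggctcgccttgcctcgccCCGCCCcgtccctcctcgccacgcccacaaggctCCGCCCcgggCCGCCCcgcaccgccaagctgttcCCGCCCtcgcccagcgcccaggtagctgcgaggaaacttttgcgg
A GC box was found in all 7 promoters of members, and in 35.7% of the 32851 promoters of that length in the RefSeq set. The windows of Sdc4 and Gpc3 each held 4, those of Sdc1, Sdc3 and Gpc2 held 3, and those of Gpc4 and Gpc5 held 1. Their GC content ran from 54.7% (Gpc5) to 77.7% (Sdc3), against a median of 52.7% over all promoters. Members that rose and members that fell thus shared this feature. The CCAAT letters, on either strand, were in 3 of the 7 (Sdc1, Gpc2 and Gpc3) and in 37.4% of all promoters, and TATAAA was in Gpc5 alone and in 13.6% of all. No window held CACGTG or the GLI motif GACCACCCA, which were in 7.15% and 0.253% of all promoters. In Sdc4 and Gpc4 the RefSeq start lay 699 and 329 bases inside the outermost start that Gencode M21 gives the gene. The outermost starts of these genes were thus outside the windows.

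Sdc1, the syndecan of epithelia and plasma cells, had 59.4, 41.9, 29.5 and 54.8 CPM in the E12.5 litters NDP10.2, NPD3, NPD4 and NPD9.2. At P0 it had 10.69, 8.65, 10.01 and 10.16 CPM in NPD26, NPD27, NPD28 and NPD30. Every P0 litter was below every E12.5 litter, and the P0 litters differed from each other by less than those of any other syndecan. Sdc1 was 4.69-fold lower at P0 (log2 fold change -2.23 ± 0.27 SE, 95% interval -2.83 to -1.63, adjusted p = 0.00038, edgeR). Per length, in TPM (counts scaled to transcript length and library), its level was 18.5 ± 1.30 at E12.5 and 4.88 ± 0.36 at P0 (SD, n = 4). The epithelial marker sum also separated the stages, at 70.0 to 198.9 CPM and 5.65 to 17.3 CPM, and its part in the fall of Sdc1 was not tested. The gene lies on chromosome 12 at 8771323 to 8793715 (plus strand, Gencode M21 on GRCm38).

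Sdc4, a syndecan of focal adhesions that binds fibronectin together with integrins, moved the other way. It had 51.7, 41.2, 13.1 and 34.4 CPM at E12.5 and 113.5, 100.1, 152.3 and 180.0 CPM at P0, in the same order of litters. All P0 litters were above all E12.5 litters, and the lowest value belonged to NPD4. The rise was 3.90-fold (log2 fold change 1.96 ± 0.39 SE, 95% interval 1.11 to 2.82, adjusted p = 0.00385). Within a litter the ratio of Sdc4 to Sdc1 CPM ranged from 0.443 to 0.981 in E12.5 litters and from 10.6 to 17.7 in P0 litters, with no overlap. Sdc4 was highest at P0 in NPD30, the P0 litter with the least leukocyte marker RNA, and its log2 fold change without that litter was 1.77 (adjusted p = 0.00542). The gene spans 164424247 to 164443887 on the minus strand of chromosome 2.

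Sdc3, the syndecan best known from the nervous system and from muscle progenitors, had 177.2, 93.1, 69.2 and 140.7 CPM at E12.5. At P0 it had 376.6, 506.4, 326.8 and 125.7 CPM. Its P0 litters NPD26, NPD27 and NPD28 were above every E12.5 litter, while NPD30 fell within the E12.5 range. Sdc3 was 2.78-fold higher at P0 (log2 fold change 1.48 ± 0.43 SE, 95% interval 0.54 to 2.42, adjusted p = 0.0251). The call was lost when any of 5 litters was left out, NPD3, NPD4 or NPD9.2 at E12.5 (adjusted p = 0.0792, 0.0522 and 0.053) or NPD26 or NPD27 at P0 (adjusted p = 0.0565 and 0.0635), and was kept without NPD30 (1.72, adjusted p = 0.00252). NPD30 also had the lowest leukocyte marker sum of the P0 litters (992 CPM, against 5358 to 8671 CPM), and the part of leukocyte RNA in the rise of Sdc3 was not tested. In E12.5 litters Sdc3 was lowest in NPD4, where the neural marker sum was highest (1653 CPM, against 157.5 to 297.0 CPM). NPD4 was also the lowest E12.5 litter for Sdc1, Sdc4, Gpc1 and Gpc3, and for 29.7% of all genes tested. The part of neural RNA in the level of Sdc3 was not tested. The gene lies on chromosome 4, plus strand, at 130792537 to 130826319.

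Sdc2, the syndecan of mesenchymal cells, did not pass the test. It had 28.8, 68.1, 40.1 and 45.2 CPM at E12.5 and 44.7, 54.1, 51.2 and 83.5 CPM at P0, with overlapping litters (log2 fold change 0.36 ± 0.30 SE, adjusted p = 0.417). The 95% interval of the change was -0.31 to 1.02. Sdc2 is on chromosome 15 at 32920723 to 33034935, plus strand.

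Gpc3, a glypican that binds Hedgehog ligands and is known as a brake on embryonic growth, had the highest mean level per length (TPM) of all members at both stages. Its counts came to 1854, 2086, 935.8 and 1041 CPM in E12.5 litters, and to 194.2, 183.3, 290.9 and 558.1 CPM in those of P0. The stages did not overlap, although NPD30 stood at 3.04 times the level of NPD27. Gpc3 was 4.82-fold lower at P0 (log2 fold change -2.27 ± 0.44 SE, 95% interval -3.25 to -1.29, adjusted p = 0.00367), and without NPD30 the log2 fold change was -2.77 (adjusted p = 0.000377). Shh, whose product glypican-3 binds, fell from 841 ± 456 to 5.94 ± 5.04 CPM in the same libraries. The sclerotome marker sum separated the stages as well, at 131.8 to 186.6 CPM and 7.77 to 21.8 CPM, and its part in the fall of Gpc3 was not tested.

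Gpc2, a glypican of developing neurons, fell furthest. Its E12.5 litters had 23.8, 34.0, 25.3 and 43.3 CPM and its P0 litters 4.09, 4.04, 3.88 and 3.18 CPM. The P0 values rest on 21 to 33 reads per litter, above the floor of 3. Gpc2 was 8.26-fold lower at P0 (log2 fold change -3.05 ± 0.30 SE, 95% interval -3.71 to -2.39, adjusted p = 0.000141). Of 6 neural markers tested, Nes and Sox2 fell as well. Nes went from 107.2 ± 44.4 to 5.20 ± 4.51 CPM (adjusted p = 0.000705) and Sox2 from 16.6 ± 8.08 to 2.10 ± 2.33 CPM (adjusted p = 0.013). The other 4, Pax6, Tubb3, Elavl3 and Stmn2, did not pass edgeR's test (adjusted p = 0.898, 0.823, 0.467 and 0.571). The part of neural RNA in the fall of Gpc2 was not tested. Of the exon length of Gpc2 (chromosome 5, minus strand, 138273655 to 138280005), 55.6% is shared on the same strand with Gm43720 in Gencode M21, a gene not in the count tables, so reads of the pair could not be separated.

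Gpc6, a glypican of mesenchyme, and Gpc1, one of nervous tissue and muscle, did not pass the test. Gpc6 had 260.4, 359.8, 253.5 and 223.3 CPM at E12.5 and 71.4, 68.1, 140.2 and 310.9 CPM at P0. NPD26, NPD27 and NPD28 were below every E12.5 litter and NPD30 was among them, so that the log2 fold change of -0.89 ± 0.46 SE (adjusted p = 0.175) became -1.60 (adjusted p = 0.00318) without NPD30. Gpc1 had 223.2, 105.4, 78.2 and 141.9 CPM at E12.5 and 83.5, 52.8, 167.2 and 267.6 CPM at P0. Its P0 litters reached both below and above the E12.5 range (log2 fold change 0.06 ± 0.49 SE, 95% interval -1.03 to 1.15, adjusted p = 0.944), and its sign changed with the scaling and with the litters used.

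Gpc4, which shares with Gpc6 a branch of the family and acts in Wnt and FGF signaling, had 54.0, 25.9, 26.1 and 101.3 CPM at E12.5 and 68.7, 43.7, 101.8 and 198.8 CPM at P0. The litters overlapped (log2 fold change 0.998 ± 0.55 SE, 95% interval -0.22 to 2.22, adjusted p = 0.208), and the value ran from 0.43 without NPD30 (adjusted p = 0.562) to 1.52 without NPD9.2 (adjusted p = 0.0694). Gpc5 was barely detected, with 5, 10, 0 and 2 reads at E12.5 and 2, 17, 7 and 5 reads at P0, and was not tested. A fit without the filter gave Gpc5 0.28 as its log2 fold change (adjusted p = 0.88), so no stage difference was detectable at this depth.

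**Figure D2:**
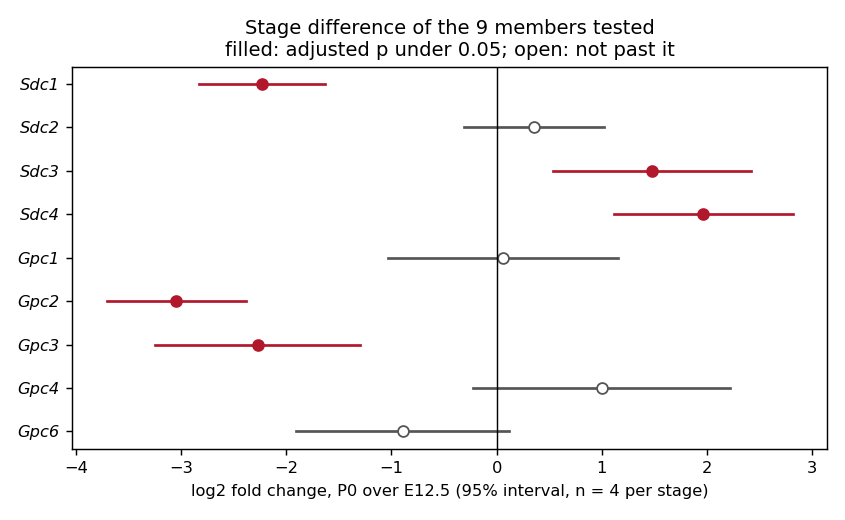
Log2 fold change of P0 over E12.5 for the 9 members tested, with 95% intervals from edgeR (4 litters per stage). Filled points passed an adjusted p under 0.05: Sdc3 and Sdc4 to the right of 0, and Sdc1, Gpc2 and Gpc3 to the left, while the open points of Sdc2, Gpc1, Gpc4 and Gpc6 have intervals that include 0.

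Gpc3 and Gpc4 are neighbours on chromosome X, on the same strand with a gap of 107.2 kb and 0 protein-coding genes between them (Gpc3 at 52272426 to 52613950 and Gpc4 at 52053021 to 52165252). Within a litter the ratio of Gpc3 to Gpc4 CPM was 34.3, 80.4, 35.8 and 10.3 at E12.5 and 2.83, 4.19, 2.86 and 2.81 at P0. The ratio was lower in every P0 litter, and NPD30, which differed from the other P0 litters in the level of both genes, had nearly the same ratio as NPD26 and NPD28. Gpc5 and Gpc6 are neighbours on chromosome 14, also on 1 strand, 400.1 kb apart (Gpc5 at 115092215 to 116525179 and Gpc6 at 116925315 to 117976544). Per length Gpc6 had a mean of 70.2 TPM and Gpc5 of 0.313 TPM at E12.5, so these neighbours did not share a level.

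Per length, the make-up of the family differed between the stages. Gpc3 was 76.9% ± 6.01 of the summed TPM of the 10 members at E12.5 and 32.5% ± 6.24 at P0 (SD, n = 4). The 4 syndecans together made up 8.43%, 6.65%, 7.88% and 11.4% of the sum in E12.5 litters, and 49.3%, 57.0%, 39.5% and 23.5% in those of P0. Syndecans thus took a larger share in every P0 litter, lowest in NPD30. The summed TPM of the syndecans ranged from 78.8 to 111.4 in E12.5 litters and from 223.8 to 276.2 in P0 litters, without overlap, and NPD30, at 231.2, was within the range of the other P0 litters. That of the glypicans ranged from 613.6 to 1563 in E12.5 litters and from 208.8 to 751.7 in P0 litters, and here NPD30 gave the P0 maximum, inside the E12.5 range. These sums are descriptions and were not tested.

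**Figure D3:**
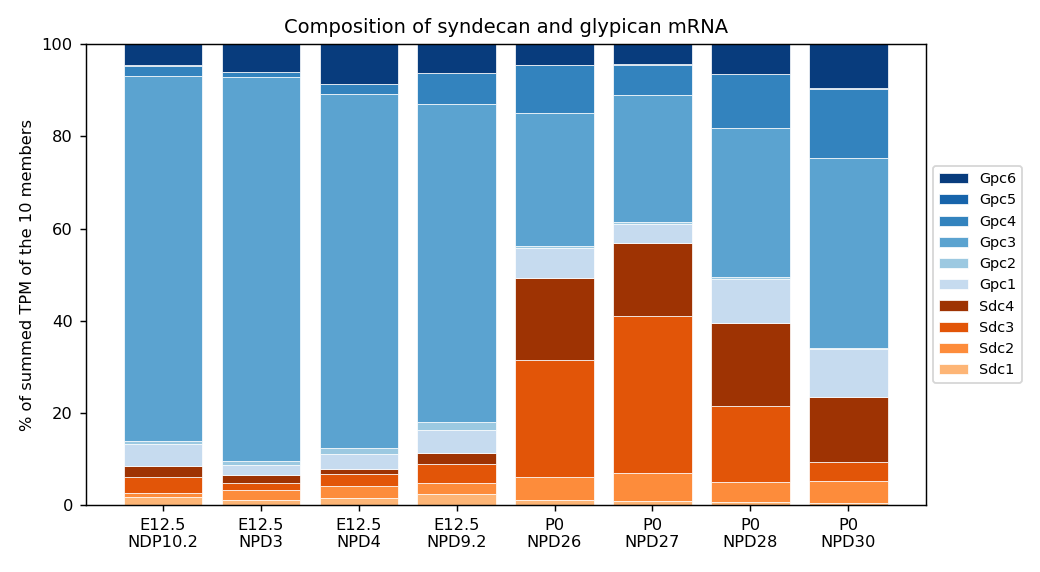
Share of each member in the summed TPM of all 10, per litter, with syndecans in orange at the bottom and glypicans in blue above. Gpc3 fills 68.9% to 83.2% of each E12.5 bar and 27.4% to 41.4% of each P0 bar.

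In order of mean TPM at E12.5, Gpc3 (873 ± 383) was followed by Gpc6 (70.2 ± 28.0), Gpc1 (39.4 ± 9.65), Sdc3 (29.8 ± 4.89), Gpc4 (27.9 ± 13.2), Sdc2 (21.4 ± 10.8), Sdc4 (20.5 ± 8.05), Sdc1 (18.5 ± 1.30), Gpc2 (11.7 ± 3.25) and Gpc5 (0.313 ± 0.344). Gpc3 was above Gpc6, Sdc1 above Gpc2, and Gpc2 above Gpc5 without overlap of litters, and the other neighbours in this order overlapped. At P0 the order by mean TPM was Gpc3 (216 ± 130), Sdc3 (104.7 ± 51.1), Sdc4 (101.0 ± 28.5), Gpc4 (73.9 ± 51.0), Gpc1 (52.4 ± 36.7), Gpc6 (43.8 ± 35.2), Sdc2 (31.4 ± 10.4), Sdc1 (4.88 ± 0.36), Gpc2 (1.67 ± 0.16) and Gpc5 (0.468 ± 0.416). From Gpc3 down to Sdc2 each neighbour overlapped the next, and Sdc1, Gpc2 and Gpc5 were each clearly below the gene before. Sdc3 and Sdc4 came right after Gpc3 at P0, where Gpc6 and Gpc1 had been at E12.5. On the TPM scale, which had no TMM factors, the Sdc3 litters did not overlap (25.4 to 36.8 at E12.5 against 41.1 to 165.1 at P0). In CPM scaled by TMM they did, with NPD30 at 125.7 CPM below NDP10.2 at 177.2 CPM and NPD9.2 at 140.7 CPM. The separation of Sdc3 thus depends on the scaling.

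The P0 litter NPD30 stood apart for several members at once. It was the highest P0 litter for 6 of the 9 members tested (Sdc2, Sdc4, Gpc1, Gpc3, Gpc4 and Gpc6) and the lowest for Sdc3 and Gpc2, while over all genes tested it was highest for 26.6% and lowest for 26.6%. NPD27 was the lowest P0 litter for 6 members (Sdc1, Sdc4, Gpc1, Gpc3, Gpc4 and Gpc6) and for 22.4% of all genes. The highest P0 litter was 5.07 times the lowest for Gpc1, 4.55 times for Gpc4 and 4.03 times for Sdc3, but 1.24 times for Sdc1 and 1.28 times for Gpc2. In NPD30 the notochord and NP marker sum was 31820 CPM, against 8220 to 12590 CPM in the other P0 litters, or 6935 against 1969 to 3797 CPM without Car3, and its part in the levels of the members was not tested.

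**Figure D4:**
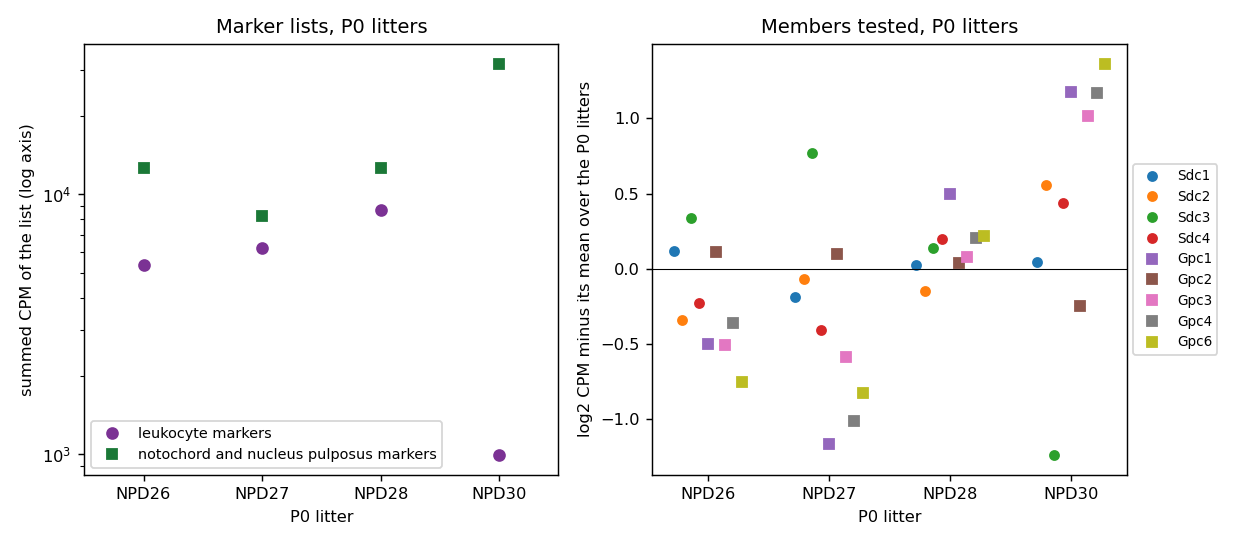
Left, the summed CPM of the leukocyte list and of the notochord and NP list in each P0 litter on a log axis. Right, the log2 CPM of each member tested minus its mean over the P0 litters, where NPD30 is highest for Sdc2, Sdc4, Gpc1, Gpc3, Gpc4 and Gpc6 and lowest for Sdc3 and Gpc2.

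The gene whose stage and litter pattern was nearest to each member was taken as the gene with the smallest root mean square (RMS) difference of centred log2 CPM over the 8 litters. For Gpc3 it was Foxa1, a forkhead factor of the notochord, at an RMS difference of 0.262. For Sdc1 it was Rbm24 (0.160), for Sdc3 Scarb1 (0.164), for Sdc4 Dap (0.262), for Gpc2 Tex16 (0.248) and for Gpc1 Thbs3 (0.207), a matrix thrombospondin. For Sdc2, Gpc6 and Gpc4 the nearest were Wdsub1 (0.153), Asap2 (0.208) and Npnt (0.385), the last a matrix ligand of integrins. Foxa1 fell by 2.23 log2 units (adjusted p = 0.00682) and Gpc3 by 2.27. Tex16 is a low gene, at 1.57 to 3.71 CPM in E12.5 litters and 0 to 0.144 CPM, under the floor, in P0 litters, and its fitted log2 fold change (-5.58) was larger than that of Gpc2 (-3.05). The prior count of 2 in log2 CPM narrows that gap. These genes are a description of likeness in 8 libraries and carry no test.

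The chains themselves are built by a shared set of enzymes. The counts of this and each following list stand beside 16.0% higher and 12.0% lower over all genes tested. In chain assembly, 0 of 11 genes were higher and 1 was lower at P0, and the median log2 fold change was -0.32. The gene that fell was Extl3, a transferase that starts heparan sulfate chains, from 106.2 ± 19.4 to 54.7 ± 7.30 CPM (log2 fold change -0.95 ± 0.22 SE, adjusted p = 0.00799). Beside the 0 from edgeR, 1 gene of this list (Xylt1) was higher at an unadjusted p under 0.05 and by DESeq2, and 0 by limma-voom. In sulfation and editing, 0 of 14 genes tested were higher, also at an unadjusted p under 0.05, by DESeq2 and by limma-voom. There 3 genes were lower, and the median was -0.21. Sulf1, an enzyme outside the cell that trims 6-O-sulfates, fell from 149.1 ± 62.6 to 19.6 ± 3.25 CPM (log2 fold change -2.93 ± 0.33 SE, adjusted p = 0.000262), and Hs3st3b1, a 3-O-sulfotransferase, by 1.54 log2 units (adjusted p = 0.0156).

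**Figure D5:**
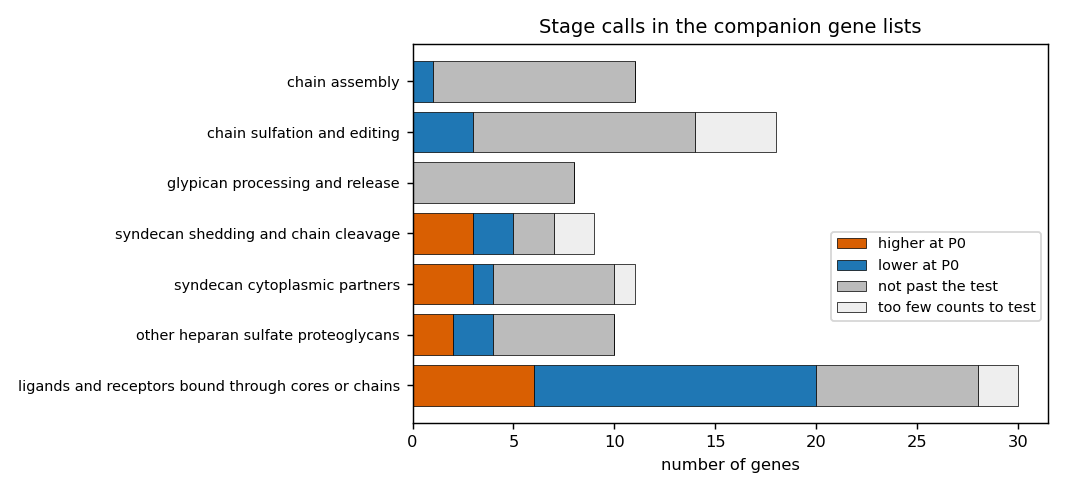
Number of genes in each companion list that were higher at P0, lower at P0, not past an adjusted p under 0.05, or too low in counts to test (edgeR). The ligand and receptor list holds 14 lower and 6 higher genes, and the list for glypican processing and release holds none of either. Of all genes tested, 16.0% were higher and 12.0% lower.

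The next lists hold enzymes that cut or release the core proteins or cut their chains, and Timp3, an inhibitor of such enzymes. For glypican processing and release, 0 of 8 genes passed edgeR's test in either direction. At an unadjusted p under 0.05, 2 were higher (Gdpd2 and Pcsk6) and 0 lower, and DESeq2 called 1 (Pcsk6) higher and limma-voom 0. In edgeR 1 was called higher with NPD9.2 or NPD28 left out, with NDP10.2 and NPD9.2 left out together, and without the filter. Notum, which cuts the glypican anchor, had 2.02 ± 1.64 and 3.02 ± 1.44 CPM (adjusted p = 0.576), and Furin, which cleaves glypican cores, had 135.1 ± 90.0 and 107.6 ± 56.3 CPM (adjusted p = 0.662). For syndecan shedding and chain cleavage, 3 of 7 genes tested were higher and 2 lower at P0 (median 0.52, the value of the inhibitor Timp3). Mmp9, a secreted gelatinase, had 1.57 to 3.77 CPM at E12.5 and 111.5, 150.1, 1059 and 90.5 CPM in NPD26, NPD27, NPD28 and NPD30 (log2 fold change 7.08 ± 0.98 SE, adjusted p = 0.000911). Without NPD28 its log2 fold change was 5.50 (adjusted p = 3.05e-05). Hpse, the heparanase, had 0, 2.73, 0.967 and 3.44 CPM in E12.5 litters and 14.3, 21.2, 8.24 and 4.55 CPM in P0 litters (2.77 ± 0.80, adjusted p = 0.0252), a call lost without NPD4, NPD26 or NPD27 (adjusted p up to 0.0677). Adam17, a syndecan sheddase, rose from 42.2 ± 7.87 to 108.9 ± 41.3 CPM (adjusted p = 0.00728). Mmp2, a matrix gelatinase, fell by 2.37 log2 units (adjusted p = 0.000317). Mmp14, a membrane-bound sheddase, fell by 0.79 (adjusted p = 0.0337), a call kept in 2 of 8 fits with a litter left out and lost without NDP10.2, NPD3, NPD9.2, NPD26, NPD28 or NPD30 (adjusted p up to 0.0821). Adam17, Mmp9 and Hpse were each lowest at P0 in NPD30, the litter with the least leukocyte marker RNA, and the part of leukocytes in these rises was not tested.

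Of the cytoplasmic partners of syndecans, which bind the tails or act through proteins that do, 3 of 10 tested genes were higher at P0. In the same list 1 was lower (median 0.05). The shares over all genes tested were 16.0% and 12.0%. Prkca, the protein kinase C isoform that syndecan-4 binds, had 13.7 to 20.5 CPM at E12.5 against 89.6 to 111.1 CPM at P0 (log2 fold change 2.61 ± 0.22 SE, adjusted p = 7.51e-05). NPD30 did not stand apart for Prkca, at 107.5 CPM. Sdcbp, or syntenin, the scaffold named for its binding to syndecans, had 112.1, 173.3, 188.5 and 113.4 CPM at E12.5 and 754.3, 755.0, 427.3 and 241.1 CPM at P0 (1.89 ± 0.38, adjusted p = 0.00443). Tiam1, a Rac activator that binds syndecan-1, fell by 1.15 log2 units (adjusted p = 0.0147), a call lost without NDP10.2 and NPD9.2 together (adjusted p = 0.095).

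Among other heparan sulfate proteoglycans, 2 of 10 genes were higher and 2 lower at P0 (median -0.15), and 4 were higher without NPD4. Agrn, the basement membrane proteoglycan agrin, fell from 406.9 ± 78.5 to 56.7 ± 23.2 CPM (log2 fold change -2.84 ± 0.33 SE, adjusted p = 0.000294), and Col18a1, another basement membrane component, fell by 2.43 log2 units (adjusted p = 0.00229). Srgn, a proteoglycan of the granules of blood cells, rose by 4.15 log2 units (adjusted p = 0.00112), with 30.3 CPM in NPD30 and 69.2 to 186.1 CPM in the other P0 litters. Cd44, a hyaluronan receptor with isoforms that carry heparan sulfate, rose by 3.79 log2 units (adjusted p = 0.000123), from 19.1 to 27.1 CPM at E12.5 to 208.0 to 574.3 CPM at P0.

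Of 28 tested ligands and receptors that bind through the cores or chains, 6 were higher and 14 lower at P0 (median -1.18). Shh had 420.3 to 1348 CPM at E12.5 against 0.157 to 11.8 CPM at P0, and Wnt7b, a Wnt ligand, fell by 5.36 log2 units (adjusted p = 0.000865), to a P0 mean of 0.446 CPM, near the floor. Fgf1, a growth factor that needs heparan sulfate to bind its receptors, rose from 3.88 ± 1.24 to 91.4 ± 44.1 CPM (4.57 ± 0.41, adjusted p = 8.69e-05). Fn1, the fibronectin gene and a ligand of syndecan-4, had 494.8 to 1496 CPM at E12.5 and 2015, 3647, 11030 and 10700 CPM at P0 (2.74 ± 0.59, adjusted p = 0.00607). Both Fn1 and Sdc4 were higher in NPD28 and NPD30 than in NPD26 and NPD27. The same held for Gpc1, Gpc3, Gpc4, Gpc6, T and Krt8, so this order was not particular to Fn1 and Sdc4. The lists were written with earlier results of these data known and carry no test as lists.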

How the data were processed

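Gene counts of 8 NDC libraries were analysed, 4 per stage. The authors sequenced single-end reads, aligned them to GRCm38.p3 (STAR 2.4.0j in the submitters' processing notes) and used htseq-count with the Gencode M4 annotation. The deposited values are raw counts per gene, not normalized. The strand setting is not given in the sources used here. Rows that name no gene (no feature, ambiguous, not unique) held 65.2% to 77.4% of tallied reads and were left out, and between 4442775 and 8904050 reads per library remained. Ambiguous reads made up 10.6% to 17.5% in E12.5 libraries and 7.07% to 10.5% in P0 libraries.

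Counts were tested in R 4.3.3 with edgeR 4.0.16 (TMM normalization, filterByExpr with a minimum count of 10 and a minimum total of 15, robust quasi-likelihood F-test) over all 15467 genes that passed, with Benjamini-Hochberg adjustment and a call at an adjusted p under 0.05. Log2 fold changes are P0 over E12.5, and a standard error is the size of the change divided by the square root of F. CPM used TMM library sizes. TPM were not adjusted by TMM factors. They used the exon length of Gencode M21, on the same build but a later annotation than that counted on. Positions are from Gencode M21 and promoter sequences from RefSeq (GRCm38.p6). Named were all 10 members, in each companion list the 2 largest rises and 2 largest falls among genes that passed, the nearest gene to each member tested, the markers T, Noto, Shh, Krt8 and Krt19, and companion genes known to act on a member. Genes outside that rule that are named beside a count were chosen after their values were seen. The members and lists were chosen with earlier results of these data known. Litters are separate biological samples. DESeq2 1.42.0, limma 3.58.1 (voom), other scalings and filters, and each litter left out were alternatives.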

Additional observations from a re-analysis of the deposited data

Results flagged for a closer look

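Within a stage, a litter was looked at again where its gap to the nearest litter, divided by the range of the 4 litters, was above Dixon's 95% critical value. This was met by 8 of 148 groups of 4 litters, and chance alone gives about 1 in 20. For the members it was met once, by the share of Gpc5 in the summed TPM of the family, which was 0.222% in the P0 litter NPD27 and 0.0283% to 0.0555% in the other P0 litters, from 17 reads. Among companion genes, Mmp9 had 1059 CPM in the P0 litter NPD28 and 90.5 to 150.1 CPM in the others. Car3, chosen for mention after its values were seen, had 24890 CPM in the P0 litter NPD30 and 6250 to 9235 CPM in the others. Noto had 0.195 CPM in the E12.5 litter NPD3, under the floor, and 0 in the other E12.5 litters. Among marker sums, the neural list had 1653 CPM in the E12.5 litter NPD4 and 157.5 to 297.0 CPM in the others. The leukocyte list had 188.1 CPM in the E12.5 litter NPD9.2 and 65.6 to 81.9 CPM in the others. The B lineage list had 362.8 CPM in the E12.5 litter NPD4, against 47.2 to 59.0 CPM, and 536.1 CPM in the P0 litter NPD28, against 110.2 to 152.7 CPM.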

How the results depend on the processing

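Sdc1, Sdc4, Gpc2 and Gpc3 kept their direction and their call under every alternative run: DESeq2, limma-voom, DESeq2 size factors, upper quartile scaling, no filter, a minimum of 10 counts in every sample, blood and mitochondrial genes left out, the E12.5 litters NDP10.2 and NPD9.2 left out together, a test against a fold change of 2, and each litter left out. Leaving out blood and mitochondrial genes removed only the rows of those genes, with 15409 genes then tested. Reads from blood cells in the counts of the members stayed, so that run cannot show the part of blood cell RNA. For Sdc3 the test against a fold change of 2 gave 1.48 with an adjusted p of 0.244, and the count of members higher at P0 was then 1. Leaving out each litter gave Sdc3 1.22 to 1.72, with the call kept in 3 of 8 fits, and a count of members higher at P0 of 1 to 2. Gpc6 ranged from -1.60 to -0.64 over these fits, and the count of members lower at P0 was 4 without NPD30. Gpc1, never called, was -0.10 by limma-voom and -0.075 with upper quartile scaling, and from -0.47 to 0.36 with a litter left out. The cause was not tested. Upper quartile scaling moved the median log2 fold change of all genes from 0.04 to -0.11, and its calls over all genes were 2105 higher and 2322 lower, against 2468 and 1853. Without the filter 32299 genes were tested and the median was 0.45.

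Shares not divided by length gave syndecans 11.4% and glypicans 88.6% at E12.5, and Gpc3 65.4% at E12.5 and 23.4% at P0. Without the E12.5 litters NDP10.2 and NPD9.2, 1493 genes were higher and 1088 lower. Against a fold change of 2, 1137 were higher and 791 lower. Gpc5 was tested only without the filter (0.28) and without those litters (0.20, adjusted p = 0.939). In the companion lists, the same pair of litters left out turned the falls of chain assembly from 1 to 0. The rises of glypican processing and release went from 0 to 1, as they did without the filter. Rises of shedding genes went from 3 to 1 and their falls from 2 to 1 with that pair left out. Falls of cytoplasmic partners then went from 1 to 0 and rises of ligands and receptors from 6 to 2. Of the genes named, Adam17, Extl3, Fn1, Hpse, Hs3st3b1, Mmp14, Sdcbp and Tiam1 lost their calls without that pair (adjusted p 0.0515 to 0.163). Gpc4 was 1.96 without those litters (adjusted p = 0.0703). No paired analysis was possible because the litters of the stages share no numbers. Depth limits Gpc5 and the size of the fall of Wnt7b, whose P0 mean was near the floor.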
